A study of Mus musculus with 32 samples.

Results

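Amino acid transporter mRNAs of the Slc1, Slc3, Slc7, Slc36, Slc38 and Slc43 families were followed on tagged ribosomes of Sertoli and Leydig cells in the mouse testis. The members were the probe sets with a single current gene symbol in those families, which gave 45 probe sets for 43 genes among the 35556 probe sets of the array. Of the 43 genes, 42 encode transporters or their subunits. The remaining match, Slc7a6os, is a neighbor of Slc7a6 on the opposite strand and is not a transporter. Slc38a1 and Slc38a9 had more than 1 probe set, and each was described by the probe set with the highest mean over the 32 arrays.

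Cells take up most amino acids through carriers that work by exchange or are driven by sodium or protons, and a cell type is set apart by which of these it uses. Light chains of the Slc7 family reach the plasma membrane only as partners of a heavy chain, Slc3a2 or Slc3a1, while cationic carriers of the same family and the Slc1, Slc36, Slc38 and Slc43 carriers work without one. In the testis, Sertoli cells supply developing germ cells behind the blood-testis barrier, and Leydig cells make testosterone under the control of luteinizing hormone (LH).

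In RiboTag mice, Cre recombinase turns on a hemagglutinin (HA) tag on a ribosomal protein, so that an anti-HA immunoprecipitation (IP) collects the polysomes of the cells that carry Cre. The total RNA of the testis homogenate that goes into the IP is the input. AMH-Cre: RiboTag mice were used for Sertoli cells and Cyp17iCre: RiboTag mice for Leydig cells, and HA staining in scattered tubule cells is known for the Cyp17iCre line. By the study's account these scattered cells were Sertoli cells. The AMH-Cre line gave 5 saline inputs and 5 saline IPs, and 2 IPs each after acyline, acyline with FSH for 1 h, acyline with FSH for 4 h, cetrorelix, and cetrorelix with testosterone for 4 h. By the study's methods, acyline or cetrorelix was given for 3 days in this line. The Cyp17iCre line gave 3 saline inputs and 3 saline IPs, and 2 IPs each after acyline for 4 days, acyline followed by LH for 1 h, and acyline followed by LH for 4 h. Acyline and cetrorelix block the GnRH receptor and so lower pituitary gonadotropins, and by the study's account some FSH remained under the antagonists. The mice were adults, with no age in weeks in the sources used here. The 4 cetrorelix arrays carry an input wording in one label but IP in the others, and were taken as IPs. The study's methods describe the arrays of the hormone-treated Sertoli groups as 2 animals each. Its supplementary legends give the saline groups as 5 AMH-Cre and 3 Cyp17iCre mice. For the hormone-treated Leydig groups the labels do not say that replicates came from separate animals. The p-values there measure only the spread between these samples, which may be technical. With 2 to 5 arrays in a group, that number limits the precision.

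The deposited values were log2 signals after robust multi-array averaging (RMA), and a level of one probe set cannot be set against that of another. In the Sertoli IPs, 18 of 19 Sertoli markers were higher than in the inputs and 0 were lower. In the Leydig IPs, 10 of 10 Leydig markers were higher than in the inputs, and 4 of 19 Sertoli markers were higher too. Spermatid markers were lower than in the inputs for 13 of 18 genes in the Sertoli line and 16 of 18 in the Leydig line. Equal amounts of RNA were compared, so that fewer cells of a type and less RNA per cell cannot be told apart. Tests were run on probe sets with a linear signal above 50 (5.64 on the log2 scale) in at least 1 array of a fit. It was called where limma gave a Benjamini-Hochberg adjusted p under 0.05 over all tested probe sets with a fold of at least 2 between IP and input or between lines, or of at least 1.5 between treatments.

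Of the 43 genes, 37 passed that signal in at least 1 array and 24 passed it in all 32 arrays. The 6 genes that never passed it were Slc38a11, of which little is known, the cationic carrier Slc7a3, the cystine carrier light chain Slc7a9 of kidney and gut, and the light chain relatives Slc7a12, Slc7a13 and Slc7a15.

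In the Sertoli cells, 13 of 36 tested genes (36.1%) were called higher in the IP than in the input and 5 (13.9%) were called lower, where 12.4% and 11.7% of all tested probe sets were called. The median log2 difference was 0.28 over the 36 genes and -0.03 over all tested probe sets. Among the cationic carriers, 4 of 4 tested genes were called higher. These were Slc7a1, the widely expressed arginine and lysine carrier, Slc7a2, its inducible relative, and Slc7a4 and Slc7a14, which resemble them in sequence.

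Slc7a4 had signals of 9.19, 8.94, 9.04, 9.12 and 8.97 in the 5 Sertoli inputs and 11.87, 11.81, 11.81, 11.65 and 11.78 in the 5 Sertoli IPs. Every IP lay far above every input, and the difference was 6.63-fold (log2 2.73 ± 0.07 SE, adjusted p = 8.21e-11 by limma). Slc7a1 had 8.49, 8.48, 8.48, 8.47 and 8.68 in the inputs and 10.37, 10.42, 10.52, 10.53 and 10.49 in the IPs, a 3.85-fold difference (adjusted p = 1.83e-10 by limma). Slc7a2 had 7.64, 7.32, 7.24, 7.51 and 7.15 in the inputs and 9.27, 9.12, 8.98, 9.17 and 8.73 in the IPs, a 3.21-fold difference (adjusted p = 6.66e-08 by limma). The 3 genes did not overlap between IP and input in any array. Slc7a14 was 2.66-fold higher in the IPs.

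Of the sodium-coupled Slc38 carriers, 3 were called higher. Slc38a2, a system A carrier of small neutral amino acids that is known to rise when cells lack amino acids, had 9.50, 9.24, 9.16, 9.27 and 9.24 in the inputs and 11.56, 11.48, 11.46, 11.36 and 11.55 in the IPs. This was a 4.59-fold difference with no overlap (adjusted p = 2.28e-10 by limma). Slc38a7, a lysosomal glutamine and asparagine carrier, had 6.73, 6.69, 6.69, 6.94 and 6.80 in the inputs and 8.50, 8.54, 8.49, 8.61 and 8.45 in the IPs, a 3.36-fold difference (adjusted p = 4.05e-10 by limma). Slc38a5, a system N carrier that moves glutamine, was 2.98-fold higher.

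Among the heterodimers, the heavy chain Slc3a2 was 2.59-fold higher in the Sertoli IPs, and 3 light chains that pair with it were higher as well. Slc7a5, the carrier of large neutral amino acids such as leucine, was 3.09-fold higher, Slc7a8, a related exchanger, was 2.61-fold higher, and Slc7a6, which exchanges cationic for neutral amino acids, was 2.44-fold higher. The other 2 genes called higher were Slc43a2, a facilitative carrier of essential neutral amino acids (2.42-fold), and Slc1a4, a carrier of alanine, serine and cysteine (2.29-fold).

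The 5 genes called lower in the Sertoli IPs were spread over the families. Slc36a3, a member of the proton-coupled family, had 9.72, 9.80, 9.73, 9.50 and 9.59 in the inputs and 7.62, 7.93, 7.82, 7.92 and 7.89 in the IPs, a 3.57-fold lower signal (adjusted p = 1.22e-09 by limma). Slc7a11, the light chain of the cystine and glutamate exchanger that feeds glutathione synthesis, had 7.60, 7.59, 7.60, 7.72 and 7.48 in the inputs and 5.94, 6.01, 5.78, 6.32 and 6.06 in the IPs, a 2.98-fold lower signal (adjusted p = 1.49e-08 by limma). Slc1a2, a glutamate carrier known from astrocytes, had 7.96, 8.24, 8.27, 7.95 and 8.13 in the inputs and 6.91, 6.90, 7.03, 7.06 and 7.14 in the IPs, a 2.15-fold lower signal. In each of the 3 genes the highest IP lay below the lowest input. Slc7a7, a light chain that exports cationic amino acids, was 2.13-fold lower. Of 12 tested macrophage markers, 6 were also lower and 1 was higher. The mean of the macrophage list was 6.73 to 6.96 in the inputs and 6.04 to 6.19 in the IPs. In the Leydig line 7 of 13 macrophage markers were lower, while Slc7a7 had 6.78, 7.20 and 7.12 in the inputs and 7.23, 7.18 and 7.50 in the IPs. The part of macrophages in the Slc7a7 difference was not tested. Slc38a9, a lysosomal arginine sensor, was 2.07-fold lower on the probe set with the higher signal, but its other probe set was higher by 0.27 on the log2 scale, so that the gene had no single direction.

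In the Leydig cells, 11 of 35 tested genes (31.4%) were called higher in the IP and 2 (5.71%) were called lower, where 11% and 10.7% of all tested probe sets were called. The median log2 difference was 0.14 over the 35 genes and -0.03 over all tested probe sets. Both system A carriers that were tested and both Slc1 carriers of neutral amino acids were called higher.

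Slc38a1, a system A carrier of glutamine and other small neutral amino acids, had signals of 6.06, 5.51 and 6.38 in the inputs of the Leydig line, while its IPs had 9.47, 9.32 and 10.02. It was the most enriched gene of these families in the Leydig line, at 12.3-fold (log2 3.62 ± 0.25 SE, adjusted p = 6.83e-06 by limma). Its other probe set gave 8.66-fold. Slc7a8 had 9.68, 9.41 and 9.52 in the inputs and 12.70, 12.86 and 12.70 in the IPs, a 9.30-fold difference (adjusted p = 2.53e-07 by limma). Slc7a11 had 7.55, 7.18 and 7.79 in the inputs and 10.49, 10.31 and 10.87 in the IPs, an 8.28-fold difference (adjusted p = 3.67e-06 by limma). For these 3 genes the lowest IP lay more than 2 log2 units above the highest input.

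Slc7a2 had 7.50, 8.07 and 7.95 in the inputs and 9.70, 9.82 and 9.89 in the IPs, a 3.90-fold difference (adjusted p = 1.11e-05 by limma). The heavy chain Slc3a2 had 11.51, 11.45 and 11.44 in the inputs and 13.27, 13.28 and 13.30 in the IPs, a 3.52-fold difference with little spread (adjusted p = 4.14e-07 by limma). The other 6 called genes were Slc7a5 (3.42-fold), Slc38a2 (3.39-fold), Slc1a3, a glutamate and aspartate carrier known from glia (3.13-fold), Slc7a4 (2.30-fold), Slc1a4 (2.24-fold) and Slc1a5, the glutamine carrier often called ASCT2 (2.19-fold).

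The lower genes were the same Slc36a3 and Slc1a2 as in the Sertoli cells. Slc36a3 had 9.39, 9.48 and 9.69 in inputs of this line and 7.28, 7.33 and 7.50 in the IPs, a 4.45-fold lower signal. Slc1a2 had 8.05, 8.13 and 8.21 in the inputs and 6.80, 6.89 and 7.04 in the IPs, a 2.33-fold lower signal. Both genes were below the inputs in every saline IP of both lines. The mean of the spermatid markers was 11.83 to 12.04 in the inputs of the lines and 10.33 to 10.62 in their saline IPs, and the part of germ cells in their lower signal was not tested.

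**Figure D1:**
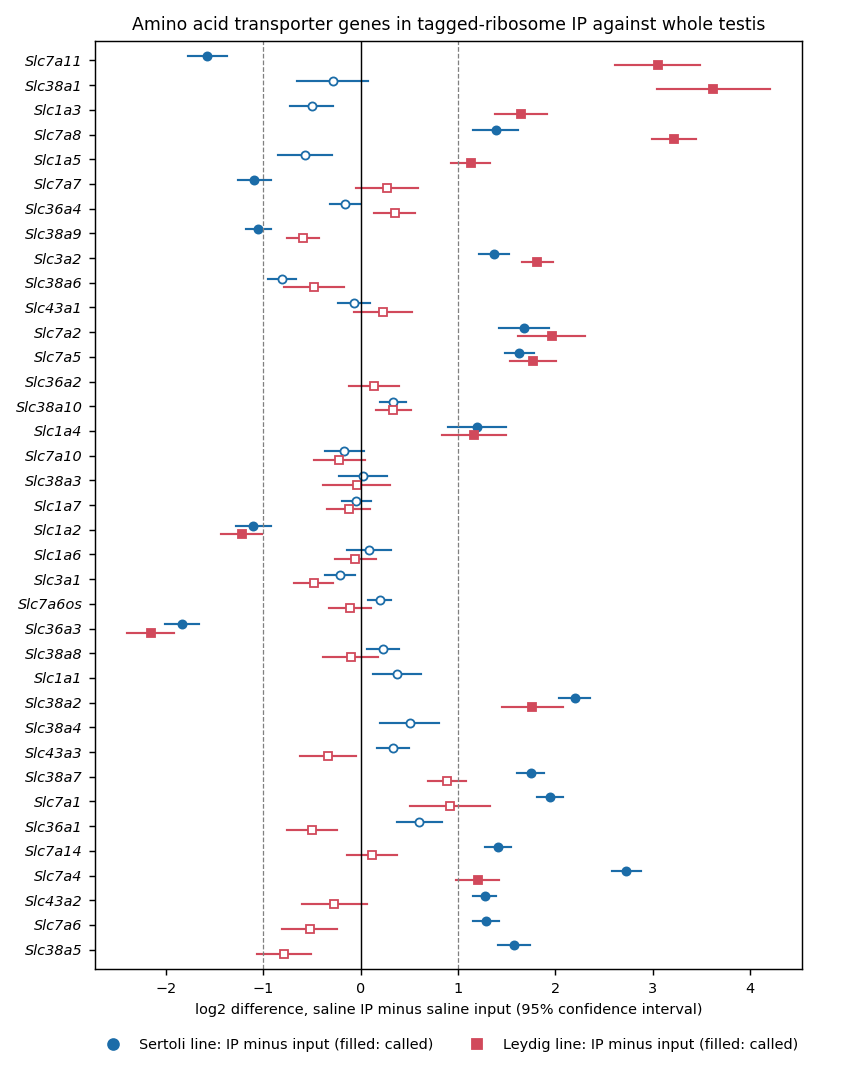
Log2 difference between saline IPs and saline inputs (horizontal axis) for each gene tested in at least 1 line, with its 95% confidence interval. Circles are the Sertoli line (5 IPs and 5 inputs), squares the Leydig line (3 and 3), filled symbols are called, and dashed lines mark a 2-fold difference. Slc7a11 lies at -1.57 in the Sertoli line and at 3.05 in the Leydig line, while Slc7a5, Slc7a2 and Slc1a4 lie close together.

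The lines were then compared to ask which carriers set the 2 cell types apart. The 7 genes called higher in the IPs of both lines were the heavy chain Slc3a2, the light chains Slc7a5 and Slc7a8, the cationic Slc7a2 and Slc7a4, Slc38a2 and Slc1a4. How many of all tested probe sets were called in both lines was not counted. The mean of the Sertoli markers was 9.16 to 9.39 in the saline Leydig IPs and 8.67 to 8.74 in the inputs of that line. The part of Sertoli RNA in the Leydig enrichment of these 7 genes was not tested. A test of the difference in enrichment itself (Leydig line minus Sertoli line) called 6 of 37 genes higher and 7 lower (16.2% and 18.9%), where 5.48% and 5.98% of all tested probe sets were called. The 6 genes with more enrichment in the Leydig line were Slc7a11, Slc38a1, Slc1a3, Slc7a8, Slc1a5 and Slc7a7. The 7 with more in the Sertoli line were Slc38a5, Slc7a6, Slc43a2, Slc7a4, Slc7a14, Slc36a1, a proton-coupled carrier of lysosomes, and Slc7a1. Slc7a7 was not called enriched in the Leydig IPs and was called lower in the Sertoli IPs. Slc36a1 was not called enriched in the Sertoli IPs.

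The largest of these differences was that of Slc7a11, the gene called lower in the Sertoli IPs and higher in the Leydig IPs, at 4.62 on the log2 scale (95% confidence interval 4.19 to 5.05, adjusted p = 5.09e-11 by limma). Slc38a1 differed by 3.90 (3.23 to 4.58, adjusted p = 4.63e-08 by limma) and Slc1a3 by 2.15 (1.80 to 2.50, adjusted p = 2.40e-08 by limma). In the other direction, Slc38a5 differed by -2.36 (-2.65 to -2.07, adjusted p = 1.13e-09 by limma). Slc38a5 was called higher in the Sertoli IPs, while in the Leydig line its IP signal was 1.72-fold lower than the input, without a call. Slc7a6 differed by -1.81 and Slc43a2 by -1.54.

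Slc7a5, Slc3a2, Slc7a2, Slc38a2 and Slc1a4 were not called in the test of the difference in enrichment. For Slc7a4 and Slc7a8, which were enriched in both lines, the size differed: Slc7a4 was 2.88-fold more enriched in the Sertoli line and Slc7a8 was 3.56-fold more enriched in the Leydig line. The call for Slc7a1 (log2 -1.02) was lost without saline replicate 1 of the Leydig IPs, where it was -0.81 and also, narrowly, without replicate 3 of the Leydig inputs.

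**Figure D2:**
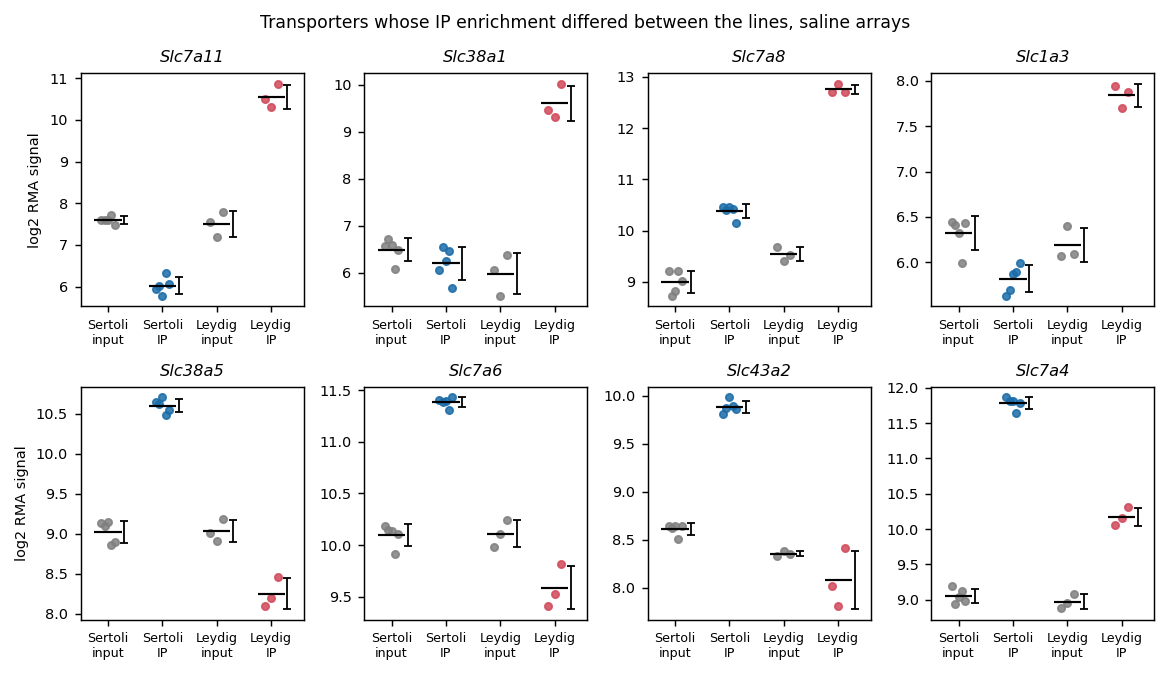
Log2 RMA signal (vertical axis, a separate scale in each panel) in each saline array for 8 transporters whose enrichment differed between the lines. Points are arrays (gray inputs, blue Sertoli IPs, red Leydig IPs), lines are means and bars the SD (n = 5 for each Sertoli group, 3 for each Leydig group). The inputs of the lines lie close together for Slc7a11 (7.48 to 7.72 and 7.18 to 7.79), while its IPs lie below them in the Sertoli line and above them in the Leydig line.

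A direct comparison of the saline IPs, which shares arrays with the enrichment test, called 5 genes higher in the Leydig IPs and 7 lower, of 37 tested (13.5% and 18.9%, where 6.24% and 6.56% of all tested probe sets were called). The ratio of Leydig to Sertoli IP was 23.1 for Slc7a11, 10.6 for Slc38a1, 5.18 for Slc7a8, 4.05 for Slc1a3 and 3.26 for Slc1a5. The reverse ratio was 5.10 for Slc38a5, 3.49 for Slc43a2, 3.48 for Slc7a6, 3.05 for Slc7a4 and 2.66 for Slc7a14. Slc7a1 and Slc36a1 were the other 2, and both calls were lost without saline replicate 1 of the Leydig IPs (log2 -0.83 and -0.94). The Slc7a1 call was also lost with quantile normalization (log2 -0.95).

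The hormone-treated IPs were then included. Over the 15 Sertoli IPs Slc7a11 ranged from 5.61 to 6.32 (median 5.94), and over the 9 Leydig IPs from 9.61 to 11.53 (median 10.18). Slc38a5 ranged from 10.09 to 10.72 in the Sertoli IPs and from 7.67 to 8.46 in the Leydig IPs. Of the 37 genes above the signal floor, 8 were higher in every Leydig IP than in every Sertoli IP and 10 were lower, where 11.8% and 16.6% of all probe sets above that floor were. The heavy chain Slc3a2 varied little, with 12.61 to 12.82 in the Sertoli IPs and 13.01 to 13.30 in the Leydig IPs.

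The genes without a call in either enrichment test filled out the families. The glutamate carriers Slc1a1 (tested in the Sertoli line only), Slc1a6 and Slc1a7 had Sertoli IP to input ratios of 1.30, 1.06 and 0.969. The heavy chain Slc3a1, partner of Slc7a9, had ratios of 0.865 in the Sertoli line and 0.716 in the Leydig line, and the light chain Slc7a10, a carrier of small neutral amino acids, had 0.892 and 0.858. Slc38a6, a less studied member of its family, was not called, with ratios of 0.572 and 0.719. Slc38a10 and Slc38a8, also less studied, and the system N carrier Slc38a3 had Sertoli ratios of 1.26, 1.18 and 1.02, and the system A carrier Slc38a4 had 1.42. The carrier Slc43a1 and the purine carrier Slc43a3 had Sertoli ratios of 0.953 and 1.26. The proton-coupled Slc36a4 and Slc36a2 had Leydig ratios of 1.27 and 1.10, and Slc7a6os had 1.15 in the Sertoli line and 0.928 in the Leydig line.

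Lists of genes that act beside these carriers were counted in the same tests, in which 12.4% of all tested probe sets were called higher and 11.7% lower in the Sertoli IPs, and 11% and 10.7% in the Leydig IPs. Of 12 mitochondrial amino acid carriers, 6 were called higher and 1 lower in the Sertoli line, against 7 higher and 1 lower for Leydig cells, with Slc25a13, the aspartate and glutamate carrier, 6.52-fold higher in the Sertoli IPs and Slc25a22, a glutamate carrier, 4.18-fold higher in the Leydig IPs. Of 16 genes of glutathione and cystine handling, 3 were higher and 2 lower in the Sertoli line, against 6 higher and 0 lower for Leydig cells, where the quinone reductase Nqo1 was 12-fold and the glutathione peroxidase Gpx1 6.64-fold higher. Of 10 glutamine and glutamate enzymes, 4 were higher in the Sertoli line and 6 for Leydig cells, where the alanine aminotransferase Gpt2 was 11.1-fold higher.

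Of 30 genes of amino acid sensing by mTORC1, 7 were higher in the Sertoli IPs, among them the arginine sensor Castor1 (5.75-fold) and the Rag GTPase Rragb (5.69-fold), and 2 were higher in the Leydig IPs, a share below that of all tested probe sets. Of the genes that respond to the transcription factor ATF4, 5 of 22 were higher in the Sertoli IPs, including the serine synthesis enzymes Psat1 (4.73-fold) and Phgdh (4.65-fold), and 7 of 23 in the Leydig IPs, including Cth, which makes cysteine (5.55-fold). Of 18 amino acid and peptide transporters of other families, Slc6a14 (6.90-fold) and Slc15a1 (5.65-fold) were higher and Slc6a6 was lower (ratio 0.421) in the Sertoli IPs, and the glycine carrier Slc6a9 was higher in the Leydig IPs (5.15-fold). These counts of 2 and 1 of 18 higher genes did not exceed the shares of all tested probe sets.

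Gonadotropin loss and its reversal were studied in the Leydig IPs. After acyline, limma called 0 of 35 genes against saline, where 0.0327% of all tested probe sets were called higher and 0.11% lower. Unadjusted p was under 0.05 for 8 genes, and the unmoderated contrast of the study's methods with the 1.5-fold threshold called 1 gene. That contrast called 581 of all 24461 tested probe sets. The 3 genes with the smallest p were Slc7a7 (ratio 0.635, adjusted p = 0.17 by limma), Slc38a5 (0.678, adjusted p = 0.21) and Slc7a4 (0.743, adjusted p = 0.22). The median log2 difference was -0.14 over the 35 genes and 0.01 over all tested probe sets. Slc38a1 had 8.62 and 8.63 in the acyline IPs, both below the saline IPs, for a ratio of 0.509 (adjusted p = 0.25 by limma). The mean level of the Leydig markers was 11.94 and 12.04 in the acyline IPs and 12.28 to 12.33 in the saline IPs, and their part in these ratios was not tested.

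At 1 h after LH, limma called 0 of 35 genes against acyline, where 0.00818% of tested probe sets were called higher and 0% lower. Unadjusted p was under 0.05 for 0 of the 35 genes, and the methods' contrast also called 0 of them, against 164 of all 24461 tested probe sets. The ratios ran from 0.850 to 1.27, and the smallest p values belonged to Slc43a3, Slc7a14 and Slc38a2 (adjusted p = 0.83 for each by limma). The other probe set of Slc38a9 had a smaller unadjusted p of 0.0071 (1.35-fold, adjusted p = 0.74 by limma).

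At 4 h after LH limma called 0 of 35 genes against acyline. Slc38a1 and Slc7a1 were at least 1.5-fold over the acyline mean in both LH arrays, and Slc7a11 and Slc1a4 in replicate 1 only. Of all tested probe sets, 0.245% were called higher and 0.368% lower. Unadjusted p was under 0.05 for 5 genes, and the methods' contrast with the 1.5-fold threshold called 2, Slc38a1 and Slc7a1. This contrast called 699 of all 24461 tested probe sets. The median log2 difference was 0.00 over the 35 genes and also over all tested probe sets.

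Slc38a1 had 8.62 and 8.63 in the acyline IPs, 8.63 and 8.53 at 1 h and 11.15 and 9.97 at 4 h after LH. Both 4 h arrays lay above the acyline arrays, by 5.76-fold and 2.54-fold, and the fitted difference was 3.83-fold (log2 1.94 ± 0.35 SE, adjusted p = 0.054 by limma). The other probe set of Slc38a1 gave 3.99-fold (adjusted p = 0.070 by limma).

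Slc7a1 had 9.20 and 9.18 after acyline, 9.46 and 9.29 at 1 h and 10.37 and 9.84 at 4 h, a fitted difference of 1.88-fold at 4 h (adjusted p = 0.12 by limma). Slc7a11 had 9.63 and 9.98 after acyline, 9.95 and 9.61 at 1 h and 11.53 and 10.18 at 4 h, a fitted difference of 2.06-fold (adjusted p = 0.21 by limma). Slc1a4 had 7.10 and 7.26 after acyline, 7.20 and 6.99 at 1 h and 8.74 and 7.49 at 4 h, a fitted difference of 1.92-fold (adjusted p = 0.22 by limma). The groups did not overlap for these genes. Of the 35 tested genes, 11 lay above acyline without overlap at 4 h and 8 below, while at 1 h 14 and 3 did. The share of all tested probe sets without overlap was not counted. Replicate 2 alone was only 1.29-fold over the acyline mean for Slc7a11 and 1.24-fold for Slc1a4. It lay above none of the saline IPs for Slc7a11 and within their range for Slc1a4. Slc7a8, the second most enriched Leydig carrier, had 12.78 and 12.91 after acyline and lower signals of 12.45 and 12.47 at 4 h (ratio 0.763, adjusted p = 0.12 by limma).

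The calls depended on 1 array. Without LH 4 h replicate 2, Slc38a1 (log2 2.53, adjusted p = 0.0083), Slc7a11 (1.72, adjusted p = 0.027) and Slc1a4 (1.56, adjusted p = 0.025) were called by limma, and without replicate 1 no gene of these families was, with Slc38a1 at 1.35 (adjusted p = 0.17). In replicate 1, 6 of 35 genes (17.1%) were at least 1.5-fold over the acyline mean, against 3.84% of all tested probe sets, and in replicate 2, 2 of 35 (5.71%) against 2.93%. The mean of the Leydig markers was 12.19 in replicate 1 and 12.05 in replicate 2, that of the Sertoli markers 8.91 and 9.15. Their part in the gap between the replicates was not tested. The SD over probe sets of the log2 difference between replicates was 0.331 for the LH 4 h pair and 0.239 to 0.300 for the pairs of the other Leydig IP groups.

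**Figure D3:**
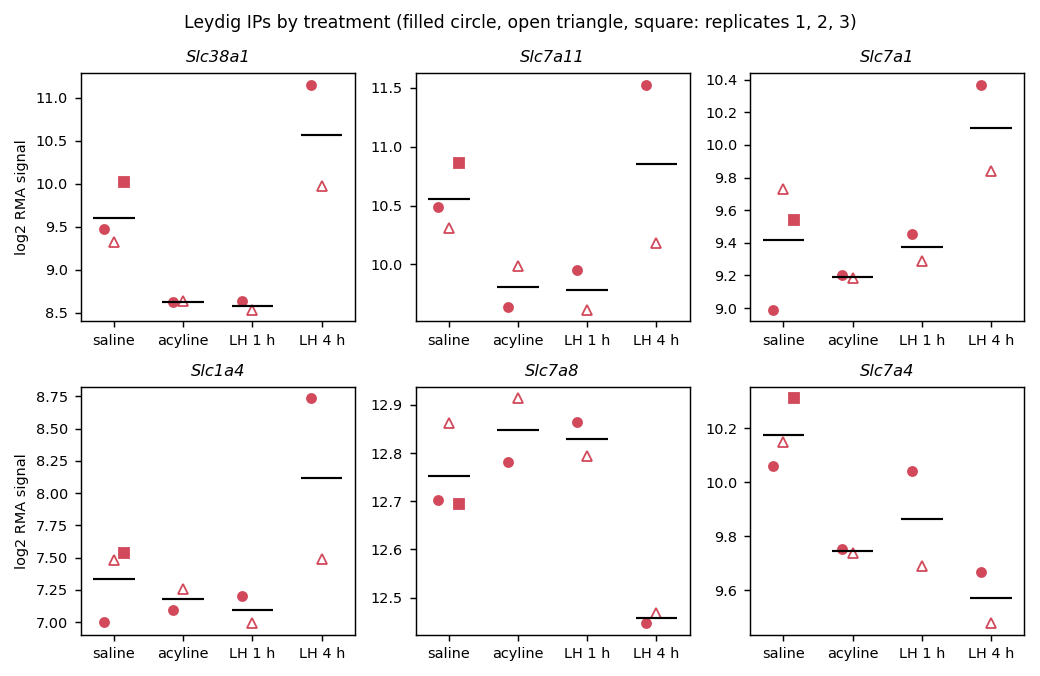
Log2 RMA signal (vertical axis, a separate scale in each panel) in the 9 Leydig IPs by treatment. Symbols are replicates 1 (filled circle), 2 (open triangle) and 3 (square), and lines are group means. LH 4 h replicate 1 lies above replicate 2 for Slc38a1 (11.15 and 9.97), Slc7a11, Slc7a1 and Slc1a4, while both replicates lie together for Slc7a8 (12.45 and 12.47).

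The promoter set used here held no entry for Slc38a1. The promoters of the other 3 of these 4 carriers are shown because their fitted differences at 4 h were among the highest of these families, although for Slc7a11 and Slc1a4 they rested on replicate 1. This choice was made after their values were seen, since none was called. Each runs from 250 bases before to 50 bases after the transcription start, 5′ to 3′ on the gene's strand (RefSeq, GRCm38.p6), with capitals for matches to the C/EBP-ATF composite site TGATGNAA or the CRE core TGACG on either strand. The regions are chr3:50443564-50443863 (minus strand) for Slc7a11, chr11:20332664-20332963 (minus strand) for Slc1a4 and chr5:148399855-148400154 (minus strand) for the first start of Slc7a1.
Slc7a11: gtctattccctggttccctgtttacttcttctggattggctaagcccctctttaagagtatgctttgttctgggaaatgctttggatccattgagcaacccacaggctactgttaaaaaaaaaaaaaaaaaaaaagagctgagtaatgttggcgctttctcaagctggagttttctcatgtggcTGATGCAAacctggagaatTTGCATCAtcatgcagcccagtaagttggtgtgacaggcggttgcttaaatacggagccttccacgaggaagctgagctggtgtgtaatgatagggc
Slc1a4: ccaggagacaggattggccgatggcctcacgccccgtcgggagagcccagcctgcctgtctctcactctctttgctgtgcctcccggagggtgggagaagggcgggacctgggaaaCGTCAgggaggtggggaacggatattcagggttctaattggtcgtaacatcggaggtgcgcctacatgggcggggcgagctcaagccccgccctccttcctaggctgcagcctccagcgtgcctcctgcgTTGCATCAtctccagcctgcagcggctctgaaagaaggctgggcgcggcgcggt
Slc7a1: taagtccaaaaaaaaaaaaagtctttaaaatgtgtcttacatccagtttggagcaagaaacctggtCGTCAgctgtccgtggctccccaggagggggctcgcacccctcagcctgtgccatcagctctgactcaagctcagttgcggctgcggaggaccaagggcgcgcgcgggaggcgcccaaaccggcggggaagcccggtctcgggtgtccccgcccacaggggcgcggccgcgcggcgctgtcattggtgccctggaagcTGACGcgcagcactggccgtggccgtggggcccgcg
Slc7a11 held matches to the composite site at positions -66 (TGATGCAA) and -47 (TTGCATCA, the reverse strand), counted from the transcription start, and Slc1a4 held one at -4. Among all 32851 promoters, 3.97% held TGATGNAA, and among the 32 member genes with a promoter 3 did, Slc7a11, Slc1a4 and Slc7a7. The share counts each promoter, while a member gene counts if any of its promoters matches, so that the units differ. The core TGACG lay at -134 in Slc1a4 and at -184 and 15 in Slc7a1, and was held by 20.8% of all promoters. Of the other motifs searched, the antioxidant response element TGACNNNGC (12.4% of all promoters) matched once in Slc7a1, and the full CRE TGACGTCA (1.79%), which contains that core, and the E-box CACGTG (7.15%) had no match in the windows shown. The window of the second Slc7a1 start held no match to any of the 5 motifs. These are matches of letters in a fixed window and not mapped binding sites.

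Against 1 h, limma called 0 of 35 genes at 4 h after LH, where 0.0409% of tested probe sets were called higher and 0.159% lower. Unadjusted p was under 0.05 for 6 genes, and the methods' contrast called 1, against 590 of all 24461 tested probe sets. The 3 smallest p values were those of Slc38a1 (3.95-fold, adjusted p = 0.068 by limma), Slc7a8 (ratio 0.772, adjusted p = 0.17) and Slc43a1, a carrier of large neutral amino acids (ratio 0.701, adjusted p = 0.20). The other probe set of Slc38a9 had a ratio of 0.609 (adjusted p = 0.068 by limma).

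Against the saline IPs, 1 of 35 genes (2.86%) was called lower and 0 higher at 4 h after LH, where 1.75% and 1.57% of tested probe sets were. This was Slc7a4, with 10.06, 10.15 and 10.31 in the saline IPs, 9.75 and 9.74 after acyline, 10.04 and 9.69 at 1 h and 9.67 and 9.48 at 4 h. Both 4 h arrays lay below the saline arrays, and the ratio was 0.659 (log2 -0.60 ± 0.13 SE, adjusted p = 0.037 by limma). Slc7a4 was also enriched in the Sertoli line, and the mean of the Sertoli markers was 8.91 and 9.15 in the 4 h arrays and 9.16, 9.18 and 9.39 in the saline IPs, with 1 of 19 called lower. Of the Leydig markers, 2 of 10 were called lower. The part of either in the Slc7a4 difference was not tested. The call was lost when any single array of either group was left out, when only these groups were fitted and when each array was centered on its median (log2 -0.51). Slc38a1, at 9.47, 9.32 and 10.02 in the saline IPs, overlapped with the 4 h arrays, with a ratio of 1.95 (adjusted p = 0.11 by limma). In this comparison Cebpb (2.24-fold) and Atf4 (1.58-fold) were called higher of 23 ATF4 response genes, and Sesn1 (ratio 0.636) and Ggt5 (ratio 0.574) were called lower in the sensing and glutathione lists. Against acyline, 0 of the 23 ATF4 response genes were called at 4 h after LH (median log2 difference 0.10). In the sensing and glutathione lists 0 of 30 and 0 of 16 genes were called there.

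**Figure D4:**
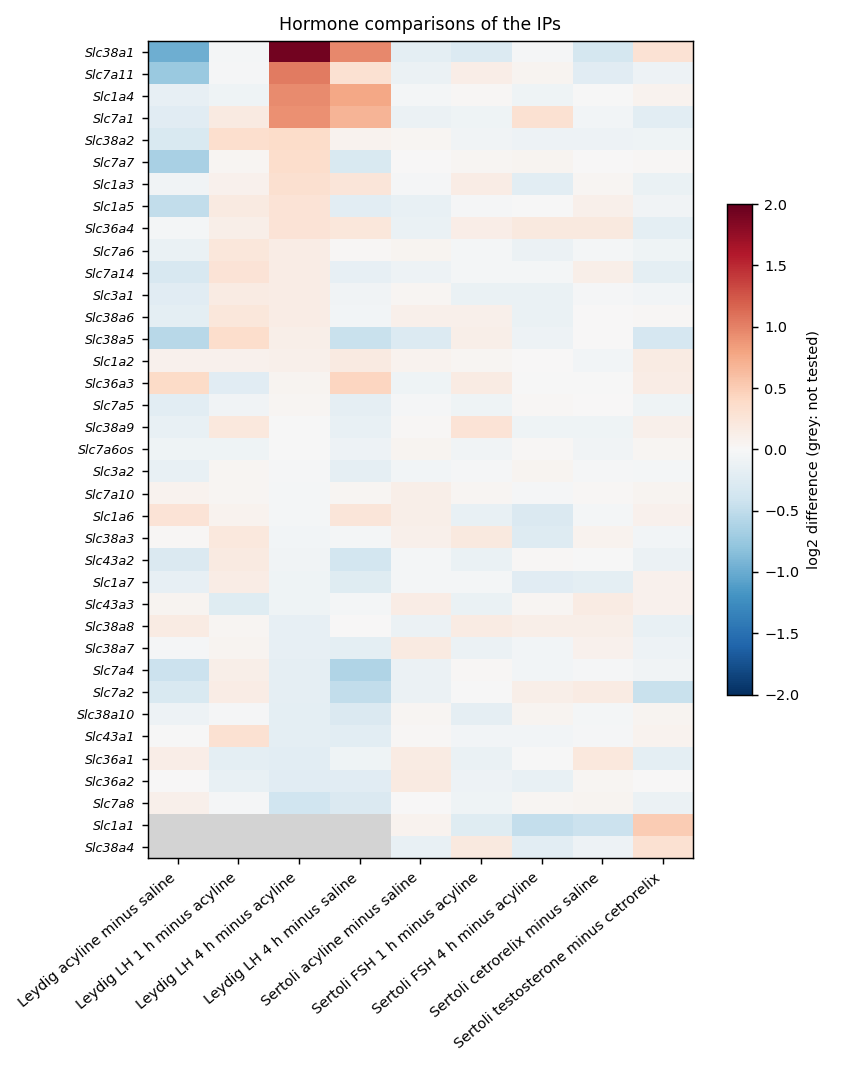
Log2 difference (color, red higher and blue lower in the first-named group, gray not tested) for each gene in the hormone comparisons of the Leydig and Sertoli IPs. Genes are ordered by the difference between LH 4 h and acyline, in which Slc38a1, Slc7a11, Slc1a4 and Slc7a1 have the highest values (1.94, 1.05, 0.94 and 0.91).

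In the Sertoli IPs no carrier was called after a hormone treatment. Limma called 0 of 37 genes after acyline, after cetrorelix, after FSH for 1 h or 4 h and after testosterone, and the methods' contrast with the 1.5-fold threshold also called 0 in each. Of all tested probe sets, 0% were called higher and 0.00406% lower after acyline, and 0% and 0.0122% after cetrorelix. These shares were 0% and 0% at 1 h and 0.00811% and 0.0122% at 4 h after FSH, and 0.00406% and 0% after testosterone. Of these 24648 probe sets, the methods' contrast called 113 after acyline and 95 after cetrorelix. It called 318 at 1 h and 151 at 4 h after FSH, and 157 after testosterone. Unadjusted p was under 0.05 for 2 genes after acyline, 2 after cetrorelix, 1 at 1 h and 2 at 4 h after FSH, and 4 after testosterone. No gene of the 37 reached a 1.5-fold difference in any of the 5 comparisons.

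After acyline, Slc38a5 had the smallest p (ratio 0.830), followed by Slc38a7 (1.13) and Slc36a4 (0.911), each with adjusted p = 0.97 by limma. After cetrorelix these were Slc1a1 (0.746), Slc36a4 (1.15) and Slc7a11 (0.859), each with adjusted p = 0.93 by limma. At 1 h after FSH they were Slc38a9 (1.21-fold, adjusted p = 0.52 by limma), Slc38a10 (0.882) and Slc1a1 (0.841). At 4 h after FSH, Slc7a1 was 1.24-fold over acyline (adjusted p = 0.85 by limma), Slc1a1 had a ratio of 0.716 and Slc36a4 of 1.14. After testosterone, Slc1a1 was 1.43-fold over cetrorelix, Slc38a5 had a ratio of 0.789 and Slc7a2 of 0.731, each with adjusted p = 0.93 by limma. None of these differences passed the test.

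The acyline effect was also compared between the lines. Acyline was given for fewer days in the Sertoli line, so that line and length of treatment cannot be told apart here. Limma called 0 of 37 genes as different, where 0.0236% of tested probe sets were called higher and 0.0433% lower. Unadjusted p was under 0.05 for 4 genes, with 1 call by the methods' contrast, which called 479 of all 25399 tested probe sets. Slc7a7 had the smallest p, with a difference in effect of -0.67 on the log2 scale in the Leydig line relative to the Sertoli line (95% confidence interval of the difference -1.04 to -0.29, adjusted p = 0.21 by limma), followed by Slc36a3 (0.46) and Slc38a6 (-0.29).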

How the data were processed

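RNA from inputs and anti-HA IPs (equal amounts, NuGEN Ovation labeling) was hybridized to Affymetrix Mouse Gene 1.0 ST arrays. The authors normalized the arrays by RMA and deposited log2 values, 1 per probe set and array, and the sources used here do not give the RMA version. Array medians were 6.36 to 6.50. Probe sets were named through the platform annotation, with 21789 of 35556 having 1 symbol, 1621 several and 12146 unlisted. Groups were taken from the labels, and scan batches were not analysed here. Differences were fitted with limma 3.58.1 (R 4.3.3, lmFit and eBayes, Benjamini-Hochberg adjustment over all tested probe sets), with 1 coefficient per group and the signal floor of 50 and folds of 2 or 1.5 that the study's methods name. The enrichment fits held the saline arrays of a line, the hormone fits held all IPs of a line, and comparisons between the lines held the saline arrays (enrichment) or all IPs of both. The pipeline was tested on simulated data. The members, gene lists and tests were chosen with earlier results of these data known. All members were named, with values in every array for the 5 most enriched and 3 most depleted called genes of each line and for any gene called in a hormone comparison, and the 3 smallest p where none was called. Further genes with unadjusted p under 0.05 at 4 h after LH were given after their values were seen. Alternatives were no filter, median-centered or quantile-normalized arrays, unmoderated or unadjusted p, fits of the compared groups only, the replicate number as a block, other probe sets and leaving out arrays. The unmoderated contrast, called the methods' test below, was taken without the ANOVA that the study ran first. By the study's account the IPs had respective inputs. Same-numbered samples did not deviate together throughout (correlations from -0.178 to 0.161), so that the numbers were not taken to pair samples. The reported enrichment fits were therefore unpaired, and only the replicate block used the numbers as pairs of IP and input. Protein sequences were not used here.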

Additional observations from a re-analysis of the deposited data

Results flagged for a closer look

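Of 74 groups of 5 arrays examined, 5 held an array whose gap to its nearest neighbor was large against the range of the group, and chance alone gives about 1 in 20. These were Slc7a8 in Sertoli IP saline replicate 5 (10.15), Slc7a1 in Sertoli input replicate 5 (8.68), and Slc1a3 (5.99), Slc43a2 (8.51) and Slc7a6 (9.91) in Sertoli input replicate 4.

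The enrichment of 13 genes differed between the lines by the interaction test. It was higher in the Leydig line for Slc7a11 (log2 4.62), Slc38a1 (3.90), Slc1a3 (2.15), Slc7a8 (1.83), Slc1a5 (1.70) and Slc7a7 (1.36). It was lower in the Leydig line for Slc38a5 (-2.36), Slc7a6 (-1.81), Slc43a2 (-1.54), Slc7a4 (-1.53), Slc7a14 (-1.30), Slc36a1 (-1.11) and Slc7a1 (-1.02).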

How the results depend on the processing

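The counts of called genes for both enrichments, their interaction and the Leydig against Sertoli IPs stayed within 1.5 times the reported count under every alternative run. Leaving out 1 array gave 18 to 18 genes for the Sertoli enrichment, 13 to 14 for the Leydig enrichment, 12 to 13 for the interaction and 10 to 13 for the Leydig against Sertoli IPs. Slc38a9 changed direction on its other probe set (log2 0.27 in the Sertoli enrichment). Slc36a1 in the Leydig against Sertoli IPs lost its call with the replicate block and without Sertoli saline replicate 4 (log2 -0.96 in each). Slc7a1 lost its call in that comparison with quantile normalization (log2 -0.95).

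Calls between treatments depended on the settings. For LH 4 h against acyline, 1 gene was called with median-centered arrays, 2 by the methods' test, 4 by unadjusted p and 0 to 3 when an array was left out. For LH 4 h against LH 1 h these were 1 by the methods' test, 4 by unadjusted p and 0 to 3, and for acyline against saline 1 and 2. For LH 4 h against saline, 0 genes were called without the filter, with median-centered arrays, with only the groups compared and with the replicate block, 4 by unadjusted p, and 0 to 2 when an array was left out. The acyline effect between lines gave 1 gene by the methods' test and 1 by unadjusted p. Over all tested probe sets, the methods' test gave 699 calls and unadjusted p 924 for LH 4 h against acyline, both with the 1.5-fold threshold. These were 590 and 786 for LH 4 h against LH 1 h, and 581 and 837 for acyline against saline. They were 1121 and 1407 for LH 4 h against saline, and 479 and 582 for the acyline effect between lines. Over all probe sets, LH 4 h against acyline gave 150 calls in the reported fit, 19 without the filter, 235 with median-centered arrays, 90 after quantile normalization, 1 with only the groups compared and 4 with the replicate block. LH 4 h against saline gave 812, 570, 955, 735, 646 and 0 in the same order, and acyline against saline gave 35, 15, 38, 39, 246 and 0. The cause of these changes was not tested. The replicate block left the Leydig against Sertoli IPs at 12 genes, but as 6 higher and 6 lower, and apart from the loss of the LH 4 h against saline call it changed the count of called members in no comparison. A crossed pairing of the replicates, chosen after seeing the data, called 0 members and 29 probe sets for LH 4 h against acyline and 0 and 0 for testosterone against cetrorelix. A group of 2 arrays limits what could be called between treatments, and a group left with 1 array was assumed to vary like the others.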
